A study of Mus musculus with 6 samples.

Results

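De novo lipogenesis, the making of fatty acids from carbohydrate carbon, was followed here through 10 genes in livers of mice with and without a working Acsm3 gene. The genes were chosen by name for their role: 4 encode the enzymes that lead from citrate to palmitate (Acly, Acaca, Acacb, Fasn), 3 encode enzymes that supply NADPH (Me1, Pgd, G6pdx) and 3 encode regulators (Thrsp, Srebf1, Mlxipl). All 10 symbols were found among the 28450 genes of the deposited table, and all 10 passed the filter for testing, which asked for 1 FPKM on average across the 6 livers. FPKM are fragments mapped per kilobase of gene, scaled to the size of the library.

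In this pathway, ATP citrate lyase splits cytosolic citrate into acetyl-CoA, acetyl-CoA carboxylase turns acetyl-CoA into malonyl-CoA, and fatty acid synthase joins these units into palmitate at the cost of NADPH. In liver the enzymes are known to be induced by insulin through SREBP-1c, the product of Srebf1, and by glucose through ChREBP, the product of Mlxipl. SREBP-1c and ChREBP are also controlled after transcription, by cleavage and by nuclear entry, which RNA levels do not show.

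The Acsm3 knockout group and the wild-type control group each held 3 male mice aged 12 weeks, on normal diet and kept under the same light cycle, and each liver gave 1 library of bead-captured mRNA. The labels do not say which part of Acsm3 was disrupted, in which cells, or whether the controls were littermates. Acsm3, whose product activates medium-chain fatty acids in mitochondria, was at 0.668, 2.92 and 1.08 FPKM in knockouts 1, 2 and 3, against 33.2, 34.4 and 32.2 FPKM in controls 1, 2 and 3 (limma, adjusted p = 0.00338). Library totals, read from the spacing of low FPKM values, came to 15400000 to 16100000 fragments in the knockout libraries and 15600000 to 16300000 in the control libraries. Of the cell type marker lists used below, that of hepatocytes had the highest summed FPKM in every library. Alb was at 21103 to 24029 FPKM in knockouts and 30151 to 37369 FPKM in controls.

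Of the 10 genes, 4 rose in the knockouts (Fasn, Pgd, Me1 and Acaca) and 0 fell at an adjusted p of 0.05 (limma on log2(FPKM + 1), Benjamini-Hochberg adjustment over all 10996 tested genes). At an unadjusted p of 0.05, 6 of the 10 passed, 5 higher and Acly lower. The share of all tested genes at that unadjusted p is not given here. Voom on recovered fragments called 4 members higher and 1 lower, beside 1847 higher and 315 lower of the 10985 genes it tested. By limma, 13.9% of all tested genes were called higher and 2.61% lower, with 16.5% called in either direction. That split was nearer to even after rescaling each library by its median ratio to the mean profile. With factors over genes of at least 1 FPKM, 7.57% of genes were called higher and 6.7% lower, and 4 members were higher and 1 lower. With factors over all genes above 0 in every mouse, 6.61% were called higher and 8.39% lower, and 3 members were higher and 1 lower. At an adjusted p of 0.1 (limma), 5 members were higher and 1 lower, beside 23.2% and 5.01% of all tested genes. At 0.01 Fasn alone was higher and 0 members were lower, beside 1.05% and 0.191%. The median log2 fold change was 0.57 over the 10 genes and 0.13 over all tested genes. The knockout and control values did not overlap in 5 of the 10, with 4 higher and 1 lower in knockouts, beside 33.9% of all tested genes higher without overlap and 7.91% lower. The share of members that were higher without overlap was thus near that of all genes. The members' count moved with single mice, as did that of all tested genes (1532 higher by limma with all 6 mice). Members called higher numbered 1 without knockout 2 or without control 3, beside 248 and 226 of all tested genes. They numbered 2 without control 1 or without control 2, beside 543 and 270. They numbered 3 without knockout 1 and 5 without knockout 3, beside 402 and 1968. Fold changes below are on log2(FPKM + 1), knockout minus control, ± the SE of limma (n = 3 each), a scale on which changes of low-FPKM genes come out too small.

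**Figure D1:**
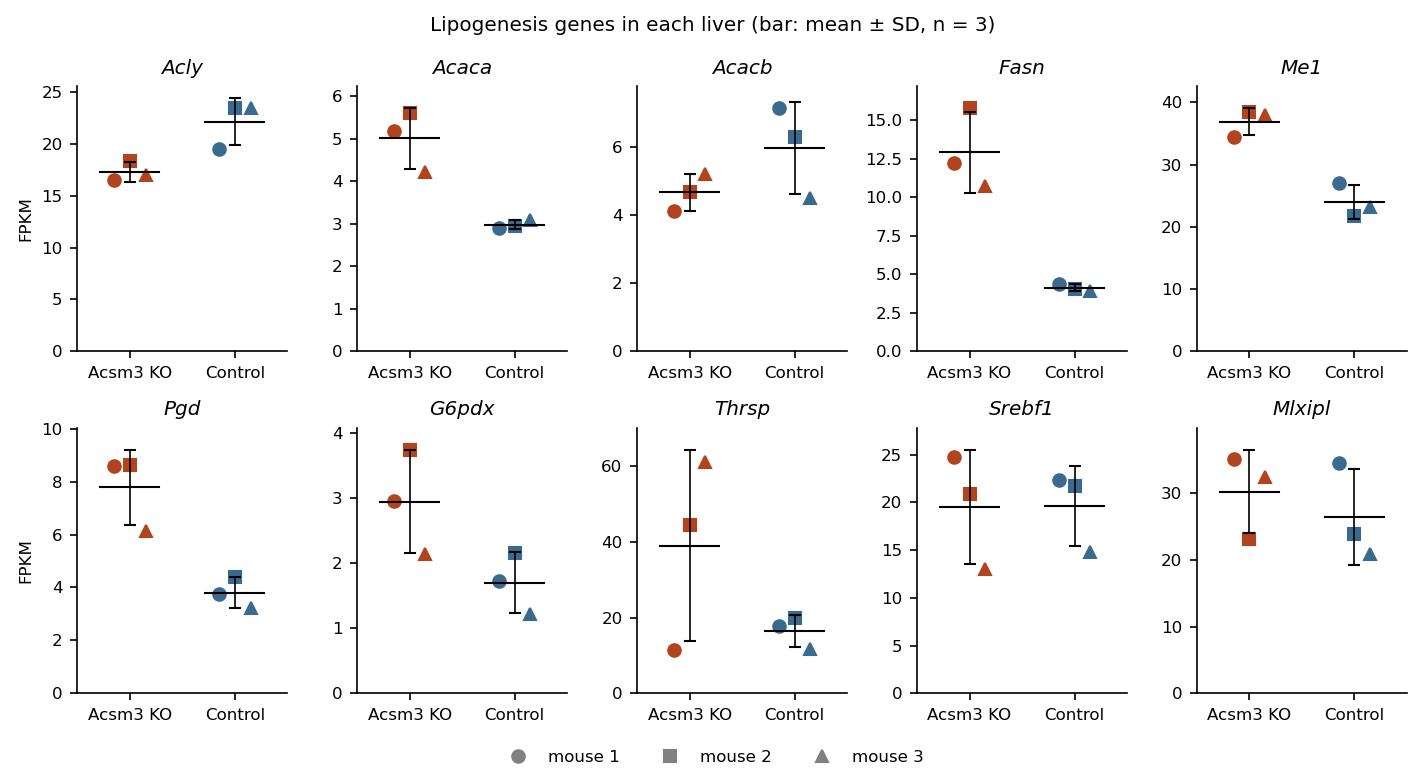
FPKM (vertical axes, each from 0) of the 10 lipogenesis genes in the 3 Acsm3 knockout livers (red, left of each panel) and the 3 control livers (blue, right). Each symbol is 1 mouse, and the bar and whiskers are the mean ± SD (n = 3). Fasn, Acaca, Me1 and Pgd lie wholly higher in knockouts, Acly lies wholly lower, and the groups overlap in Acacb, G6pdx, Thrsp, Srebf1 and Mlxipl.

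The enzymes from citrate to palmitate did not move together. Fasn (ENSMUSG00000025153, GRCm38 chr11:120805846-120824547, minus strand) encodes fatty acid synthase, which makes palmitate. It was at 12.2, 15.8 and 10.7 FPKM in knockouts 1, 2 and 3, against 4.39, 4.07 and 3.92 FPKM in controls 1, 2 and 3. The lowest knockout was thus more than double the highest control, and the means of 12.9 ± 2.61 and 4.13 ± 0.239 FPKM (SD, n = 3 each) differed 3.13-fold. Its log2 fold change was 1.42 ± 0.14 (limma, adjusted p = 0.00546, higher in 3 of 3 knockouts). Fasn passed with each mouse left out, at 1.28 to 1.54. Its values rest on an estimated 672 to 2656 fragments per library.

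Acaca (ENSMUSG00000020532, chr11:84129672-84401651, plus strand) encodes acetyl-CoA carboxylase 1, the cytosolic enzyme that makes malonyl-CoA for synthesis. It was at 5.19, 5.62 and 4.22 FPKM in knockouts 1, 2 and 3, against 2.90, 2.94 and 3.10 FPKM in the controls. The 3 controls lay within a 1.07-fold range and every knockout lay above them. Acaca rose 1.68-fold, by 0.59 ± 0.10 (limma, adjusted p = 0.0194). The call was kept without knockout 3 and was lost without any other mouse (adjusted p from 0.0547 to 0.0692), and with no filter on low values it was lost as well (adjusted p = 0.0509).

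Acacb (ENSMUSG00000042010, chr5:114146535-114250761, plus strand) encodes acetyl-CoA carboxylase 2, the form at the outer mitochondrial membrane whose malonyl-CoA is known to restrain fatty acid entry into mitochondria. It was at 4.11, 4.69 and 5.19 FPKM in knockouts 1, 2 and 3, against 7.15, 6.29 and 4.49 FPKM in controls 1, 2 and 3. Control 3 lay inside the knockout range, and the log2 fold change of -0.29 ± 0.16 did not pass (limma, adjusted p = 0.24, 95% interval -0.66 to 0.09).

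Acly (ENSMUSG00000020917, chr11:100476353-100528000, minus strand) encodes ATP citrate lyase, the source of cytosolic acetyl-CoA from citrate. It was at 16.5, 18.3 and 17.0 FPKM in knockouts 1, 2 and 3, against 19.5, 23.4 and 23.4 FPKM in the controls, so that each knockout lay below each control. The log2 fold change of -0.34 ± 0.09 just missed the threshold (limma, adjusted p = 0.0532, 95% interval -0.56 to -0.11). Acly passed as lower after median-ratio rescaling (-0.49, adjusted p = 0.0378), with quantile normalization (-0.46, adjusted p = 0.0470) and without control 1 (-0.42, adjusted p = 0.0442).

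The 250 bases before the start are shown for Fasn, Pgd and Me1, which rose, and for Acly, whose values were lower in every knockout. Pgd and Me1 each have 2 annotated starts, of which the outer is shown. The sequences are RefSeq's on GRCm38.p6, read on the gene's own strand (minus for all 4). They are given 5′ to 3′ up to the base before the start, and capitals mark every CCAAT and GGGCGG on either strand.
Fasn, chr11:120824548-120824797: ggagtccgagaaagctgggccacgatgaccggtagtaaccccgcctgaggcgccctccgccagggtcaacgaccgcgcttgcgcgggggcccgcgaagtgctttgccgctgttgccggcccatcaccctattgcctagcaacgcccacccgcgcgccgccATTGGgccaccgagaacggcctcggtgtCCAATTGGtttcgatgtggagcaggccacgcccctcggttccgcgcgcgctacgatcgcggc
Pgd, chr4:149166706-149166955: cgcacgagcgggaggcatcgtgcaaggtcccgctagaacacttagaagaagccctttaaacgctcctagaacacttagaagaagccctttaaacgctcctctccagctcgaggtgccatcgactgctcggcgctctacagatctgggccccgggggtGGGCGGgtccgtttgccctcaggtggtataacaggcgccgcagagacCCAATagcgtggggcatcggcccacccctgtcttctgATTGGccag
Me1, chr9:86695915-86696164: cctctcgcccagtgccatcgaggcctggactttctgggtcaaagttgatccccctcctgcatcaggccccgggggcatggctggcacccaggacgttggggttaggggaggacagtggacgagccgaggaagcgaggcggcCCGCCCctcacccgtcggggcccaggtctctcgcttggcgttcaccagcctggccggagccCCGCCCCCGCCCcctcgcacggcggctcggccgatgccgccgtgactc
Acly, chr11:100528001-100528250: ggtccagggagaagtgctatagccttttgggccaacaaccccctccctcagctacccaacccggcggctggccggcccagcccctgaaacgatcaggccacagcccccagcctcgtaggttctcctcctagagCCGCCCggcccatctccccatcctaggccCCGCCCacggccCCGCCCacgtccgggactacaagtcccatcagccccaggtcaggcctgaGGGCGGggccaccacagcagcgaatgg

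In the Fasn window CCAAT, the letters known to be bound by NF-Y, began at -90, -62 and -59 relative to the start, and the last pair overlap on opposite strands. In the Pgd window CCAAT began at -46 and -9, and GGGCGG, the letters known to be bound by SP1, began at -93. The Me1 window at the outer of its 2 annotated starts held GGGCGG at -109, -48 and -42, and the Acly window held it at -117, -88, -76 and -27. CCAAT was in 33.8% of the 32851 such windows in the table, and in 8 of the 15 windows of the 10 genes (7 genes). GGGCGG was in 32.7% of all windows and in 7 of those 15 (6 genes). The E-box CACGTG (6.02% of all windows) and the sterol regulatory element form TCACNCCAC (1.05% of all windows) were each in 1 of the 15 windows of the 10 genes, a Mlxipl window in both cases. The RefSeq window of Acaca, which also rose, held neither CCAAT nor GGGCGG. It lies inside the gene, at chr11:84195188-84195437, and is not shown. The G6pdx window held no CCAAT. These matches describe letters in windows of fixed length and do not show binding. Only these exact letters were searched and variant forms were not, so a window without a match is not shown to lack the element.

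Of the NADPH suppliers, Me1 and Pgd rose. Me1 (ENSMUSG00000032418, chr9:86581371-86695953, minus strand) encodes cytosolic malic enzyme, which makes NADPH while returning malate to pyruvate. It was at 34.4, 38.4 and 37.9 FPKM in knockouts 1, 2 and 3, against 27.1, 21.7 and 23.1 FPKM in controls 1, 2 and 3. The groups lay apart, and the rise was 1.54-fold, or 0.61 ± 0.10 (limma, adjusted p = 0.0159). Me1 lost its call without knockout 2, control 2 or control 3 (adjusted p from 0.0567 to 0.0629). It also lost the call after median-ratio rescaling with factors over all genes above 0 (0.40, adjusted p = 0.0594), and kept it with factors over genes of at least 1 FPKM (0.45, adjusted p = 0.0369).

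Pgd (ENSMUSG00000028961, chr4:149149991-149166771, minus strand) encodes 6-phosphogluconate dehydrogenase, the later NADPH-making step of the pentose phosphate pathway. It was at 8.58, 8.61 and 6.14 FPKM in knockouts 1, 2 and 3, against 3.76, 4.41 and 3.23 FPKM in controls 1, 2 and 3. Knockout 3, the lowest of its group, still lay above every control. Pgd rose 2.05-fold, by 0.86 ± 0.15 (limma, adjusted p = 0.0180), and did not pass without knockout 1, knockout 2, control 1 or control 3 (adjusted p from 0.0518 to 0.0667).

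G6pdx (ENSMUSG00000031400, chrX:74409483-74429194, minus strand) encodes glucose-6-phosphate dehydrogenase, the entry step of the same pathway. It was at 2.96, 3.73 and 2.15 FPKM in knockouts 1, 2 and 3, against 1.73, 2.15 and 1.22 FPKM in controls 1, 2 and 3. Knockout 3 and control 2 were level, and the log2 fold change of 0.54 ± 0.19 did not pass (limma, adjusted p = 0.0910, 95% interval 0.10 to 0.99). Without knockout 3 it did (0.70, adjusted p = 0.0417). G6pdx had the fewest fragments of the 10 genes, an estimated 59 to 177 per library. It shares 418 bp, 13.6% of its exon sequence, with Ikbkg on the other strand, which averaged 10.4 FPKM. The labels do not tell whether strand was kept, so fragments of the 2 genes cannot be told apart there.

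**Figure D2:**
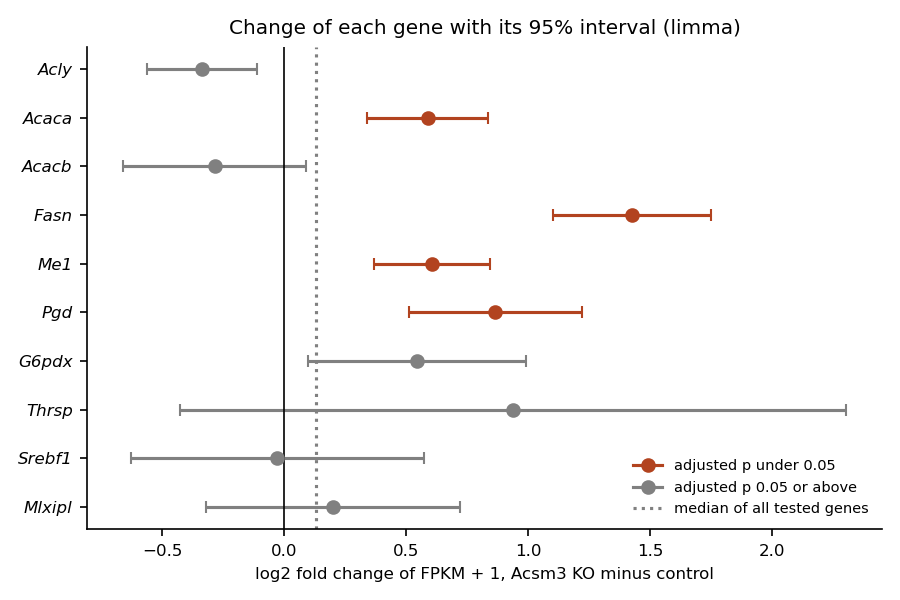
Log2 fold change of FPKM + 1, Acsm3 knockout minus control (horizontal axis), of the 10 genes with 95% intervals from limma (n = 3 each). Red marks an adjusted p under 0.05 and the dotted line is the median of all tested genes at 0.13. Fasn at 1.42 stands farthest from 0 among the 4 called genes, and the interval of Thrsp runs from -0.43 to 2.30.

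None of the 3 regulators passed, with 0 at an unadjusted p under 0.05 and 0 called by voom. Srebf1 (ENSMUSG00000020538, chr11:60199089-60222581, minus strand) was at 24.7, 20.9 and 13.0 FPKM in knockouts 1, 2 and 3, against 22.3, 21.7 and 14.8 FPKM in controls 1, 2 and 3. The groups overlapped almost fully, with means of 19.5 ± 5.97 and 19.6 ± 4.19 FPKM (SD, n = 3 each). Its log2 fold change was -0.03 ± 0.25 (limma, adjusted p = 0.951), and the 95% interval of -0.63 to 0.57 leaves room for changes of either sign. RefSeq lists 3 starts for Srebf1, and a value per gene does not separate SREBP-1a from SREBP-1c RNA.

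Mlxipl (ENSMUSG00000005373, chr5:135089890-135138382, plus strand) was at 35.0, 23.2 and 32.4 FPKM in knockouts 1, 2 and 3, against 34.5, 23.8 and 20.8 FPKM in controls 1, 2 and 3. The ranges of the groups crossed, and the log2 fold change of 0.20 ± 0.22 did not pass (limma, adjusted p = 0.554, 95% interval -0.32 to 0.72). Its sign turned after median-ratio rescaling with factors over all genes above 0 (-0.0070, adjusted p = 0.986). RefSeq lists 2 starts for Mlxipl, which one value per gene likewise does not separate.

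Thrsp (ENSMUSG00000035686, chr7:97412938-97417730, minus strand) encodes Spot 14, a small protein known to be induced by thyroid hormone and carbohydrate and to promote fatty acid synthesis. It was at 11.5, 44.5 and 61.1 FPKM in knockouts 1, 2 and 3, against 17.9, 19.9 and 11.7 FPKM in controls 1, 2 and 3. Knockouts 2 and 3 lay more than double above every control while knockout 1 lay below them all, a 5.33-fold range within the knockouts beside 1.71-fold within the controls. With this spread the log2 fold change of 0.94 ± 0.57 did not pass (limma, adjusted p = 0.284). Without knockout 1 it did (1.64, adjusted p = 0.0365). Knockout 1 was not low in Fasn, at 12.2 FPKM.

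By mean level per length, the order in knockouts was Thrsp, Me1, Mlxipl, Srebf1, Acly, Fasn, Pgd, Acaca, Acacb and G6pdx. Each of the first 4 overlapped the next gene in the order, and Acaca overlapped Acacb, whereas Acly, Fasn, Pgd and Acacb each lay wholly above the next. In controls the order was Mlxipl, Me1, Acly, Srebf1, Thrsp, Acacb, Fasn, Pgd, Acaca and G6pdx. There the first 4 each overlapped the next and Fasn overlapped Pgd, while Thrsp, Acacb, Pgd and Acaca each lay wholly above the next. Acacb thus stood above Fasn and Acaca in the controls and below both by mean in the knockouts. The level of Acaca per length is divided by an exon union of 17074 bp, the longest of the 10 genes, which bears on its place in the order but not on its change.

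Ratios within a mouse do not depend on how the libraries were scaled. The Acaca to Acacb ratio was 1.26, 1.20 and 0.813 in knockouts 1, 2 and 3, against 0.406, 0.468 and 0.689 in controls 1, 2 and 3. The balance of the carboxylase transcripts was therefore 2.11-fold further towards Acaca in knockouts, with no overlap. The Fasn to Acly ratio was 0.743, 0.864 and 0.631 in knockouts 1, 2 and 3, against 0.225, 0.174 and 0.167 in controls 1, 2 and 3, a 3.95-fold difference. Fasn to Acaca differed 1.85-fold, Fasn to Srebf1 3.16-fold and Fasn to Mlxipl 2.68-fold, each with knockouts wholly above controls. The Pgd to G6pdx ratio overlapped between the groups (2.90, 2.30 and 2.86 in knockouts 1, 2 and 3, against 2.17, 2.05 and 2.65 in controls 1, 2 and 3), as did Thrsp to Mlxipl. For the 5 ratios without overlap the exact permutation test gave p = 0.1, two-sided, the smallest that 3 against 3 mice allow, or 0.14 adjusted over the 7 ratios compared. The overlapping ratios had p = 0.2 for Pgd to G6pdx and p = 0.4 for Thrsp to Mlxipl by the exact permutation test.

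**Figure D3:**
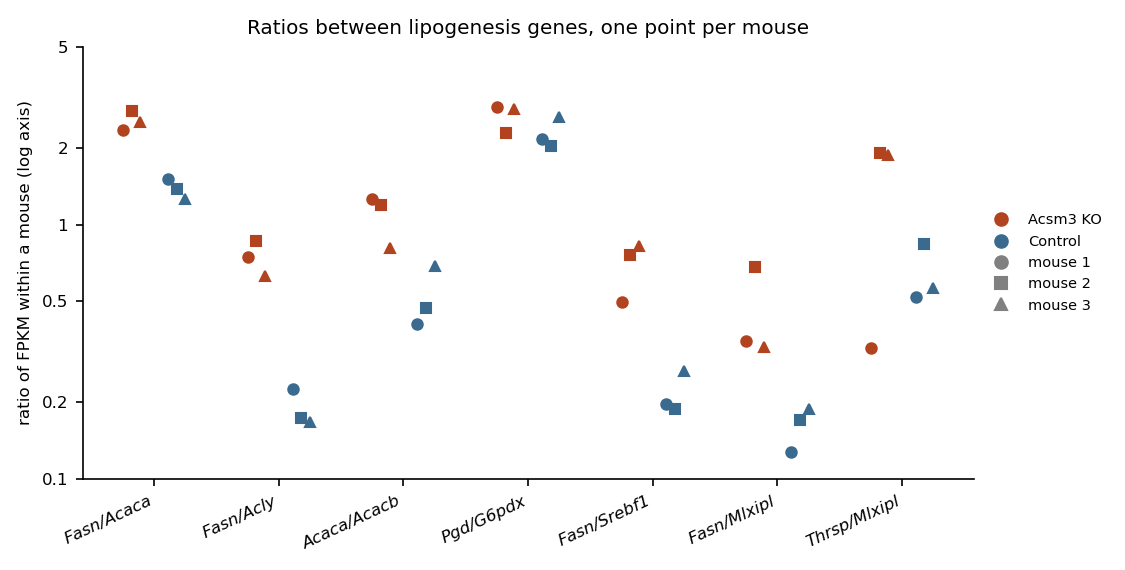
Ratio of FPKM between 2 lipogenesis genes within each mouse (log axis), with knockouts in red to the left of controls in blue and 1 symbol per mouse. The 3 knockouts lie above the 3 controls in all ratios but Pgd/G6pdx and Thrsp/Mlxipl, where knockout 1 has the lowest Thrsp/Mlxipl value at 0.328.

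The genes around the pathway were described from lists of known roles. Over all these lists, members left out, limma called 13 of 119 tested genes higher and 5 lower. That is a smaller share higher and a larger share lower than over all tested genes (13.9% and 2.61%). At an unadjusted p under 0.05 there were 43 of the 119, and the share of all tested genes at that p is not given here. Of 11 other tested genes of NADPH supply and the pentose phosphate pathway, 3 rose and 0 fell (median log2 fold change 0.31). They were Taldo1 (0.54 ± 0.08, limma, adjusted p = 0.0129) and Tkt (0.52 ± 0.08, adjusted p = 0.0137), the transaldolase and transketolase of the non-oxidative branch, and H6pd (0.31 ± 0.07, adjusted p = 0.0362), the glucose-6-phosphate dehydrogenase of the endoplasmic reticulum. Taldo1 was at 43.9, 44.8 and 42.5 FPKM in knockouts 1, 2 and 3, against 30.9, 31.3 and 27.0 FPKM in controls 1, 2 and 3, with no overlap. Taldo1 lost its call without knockout 2 (adjusted p = 0.0549), Tkt without knockout 2, control 2 or control 3 (adjusted p up to 0.0557), and H6pd without any mouse but knockout 3 (adjusted p up to 0.123) and after median-ratio rescaling with either set of factors (0.15 and 0.10). Rpia, Me3 and Nnt of this list lay below the filter. Me1, G6pdx, Pgd, Tkt and Taldo1 are also known as targets of the oxidative stress factor NRF2.

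Of 13 tested genes that bring citrate, pyruvate and acetyl-CoA, 1 rose and 1 fell (median -0.04), while voom called 1 higher and 2 lower. Cs, mitochondrial citrate synthase, was at 22.6, 22.6 and 23.9 FPKM in knockouts 1, 2 and 3, against 16.0, 15.0 and 13.0 FPKM in the controls. It rose by 0.62 ± 0.09 (limma, adjusted p = 0.0124) and kept its call with each mouse left out. The oxoglutarate carrier Slc25a11 fell by 0.30 on the log2 scale (SE 0.07, limma, adjusted p = 0.0339), a call lost without any mouse but knockout 3 (adjusted p up to 0.116). The mitochondrial citrate carrier Slc25a1, chosen after its values were seen, was at 43.3, 41.8 and 41.5 FPKM in knockouts 1, 2 and 3, against 48.6, 44.3 and 44.3 FPKM in the controls (-0.11, adjusted p = 0.295 by limma).

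Of 11 tested genes of SREBP processing and its partners, 2 rose and 0 fell (median 0.22), while voom called 5 higher and 0 lower. Insig2 encodes an endoplasmic reticulum protein known to hold the SCAP and SREBP complex back from processing. It was at 124, 117 and 143 FPKM in knockouts 1, 2 and 3, against 54.4, 32.1 and 38.5 FPKM in controls 1, 2 and 3, and every knockout lay more than double above the highest control. Insig2 rose 3.07-fold, by 1.63 ± 0.19 (limma, adjusted p = 0.00777), and kept its call with each mouse left out. The coactivator Crebbp also passed (0.29 ± 0.08, adjusted p = 0.0490 by limma) but lost its call without each of the 6 mice (adjusted p up to 0.138), after median-ratio rescaling with either set of factors (0.18 and 0.15) and under quantile normalization (0.09). Insig1, which has the same known role and is itself known as an SREBP target, was chosen after its values were seen. It was at 11.7, 14.3 and 16.1 FPKM in knockouts 1, 2 and 3, against 22.9, 16.2 and 16.0 FPKM in controls 1, 2 and 3, and did not pass (-0.36 ± 0.17, adjusted p = 0.179 by limma).

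Among 17 tested partners of ChREBP and glucose-responsive genes, 0 rose and 1 fell (median 0.02), and 7 had an unadjusted p under 0.05. Voom called 2 of them higher and 2 lower. The gene that fell was G6pc, the glucose-6-phosphatase that releases glucose. It was at 120, 108 and 89.8 FPKM in knockouts 1, 2 and 3, against 170, 188 and 245 FPKM in controls 1, 2 and 3 (-0.91 ± 0.16, limma, adjusted p = 0.02). The call was lost without knockout 2, control 2 or control 3 (adjusted p up to 0.0665).

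Of 15 tested LXR and promoter factors, 2 rose and 1 fell (median 0.00). Hnf4a, the hepatocyte nuclear factor, rose by 0.70 ± 0.12 and Nfya, a subunit of NF-Y, by 0.35 ± 0.10, and the constitutive androstane receptor Nr1i3 fell by 0.47 on the log2 scale (SE 0.08; limma, adjusted p from 0.0194 to 0.0490). Nfya lost its call without each of the 6 mice (adjusted p up to 0.137), after median-ratio rescaling with either set of factors (0.25 and 0.21) and under quantile normalization (0.15). Hnf4a lost it without knockout 1, control 2 or control 3, and Nr1i3 without those or knockout 2 (adjusted p up to 0.0616 for both), and Hnf4a also after either median-ratio rescaling (adjusted p = 0.0524 and 0.0769). Of 12 tested genes of the insulin branch 1 rose by limma (median 0.09) and 2 by voom. The gene called by limma was the kinase Gsk3b (0.48 ± 0.09, limma, adjusted p = 0.0239). Gsk3b did not pass without any mouse but knockout 3 (adjusted p up to 0.0848), after either median-ratio rescaling (0.34 and 0.30) or under quantile normalization (0.31).

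Limma called 0 of 7 tested AMPK subunits and upstream kinases (median 0.05), with 2 at an unadjusted p under 0.05. AMPK is known to inhibit both carboxylases by phosphorylation, and its subunit Prkaa1 came nearest (0.30 ± 0.09, adjusted p = 0.0646) and was called with array weights (adjusted p = 0.0206). In the list of malonyl-CoA removal and of carboxylase and Spot 14 partners, limma called 0 of 5 tested genes, Acacb among them (median 0.00), with 0 at an unadjusted p under 0.05. The nearest other gene was the biotin recycling enzyme Btd (-0.16 ± 0.08, adjusted p = 0.215), which was called lower after median-ratio rescaling with factors over all genes above 0 (-0.37, adjusted p = 0.0479). Of 8 tested genes of the thyroid hormone branch 0 were called (median 0.14) and 3 had an unadjusted p under 0.05. The nearest was the coactivator Ncoa1 (0.33 ± 0.09, adjusted p = 0.0502 by limma). Of 7 tested genes of the separate mitochondrial fatty acid synthesis pathway, limma called 0 (median 0.06), with 2 at an unadjusted p under 0.05. The reductase Mecr was nearest (0.36 ± 0.12, adjusted p = 0.0801). Over these 4 lists voom called Ncoa1 (0.43, adjusted p = 0.0323) and no other gene.

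Downstream of palmitate, 4 of 14 tested genes rose and 2 fell (median 0.01). Those that fell, named after their values were seen, were also desaturases. They were Fads2 (-0.80 ± 0.09, limma, adjusted p = 0.00638) and Fads1 (-0.53 ± 0.08, limma, adjusted p = 0.0129). The 3 largest rises were those of the desaturases Scd1 (3.11 ± 0.14) and Scd2 (1.36 ± 0.18) and of the elongase Elovl1 (0.81 ± 0.09), with limma adjusted p from 0.000796 to 0.0112, and none of the 3 lost its call when a mouse was left out. Scd1, which makes oleate and palmitoleate, was at 2767, 2872 and 3131 FPKM in knockouts 1, 2 and 3, against 295, 415 and 315 FPKM in controls 1, 2 and 3. Its mean rose 8.56-fold where Fasn rose 3.13-fold. Knockout 3 was the highest knockout for Scd1 and the lowest for Fasn.

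**Figure D4:**
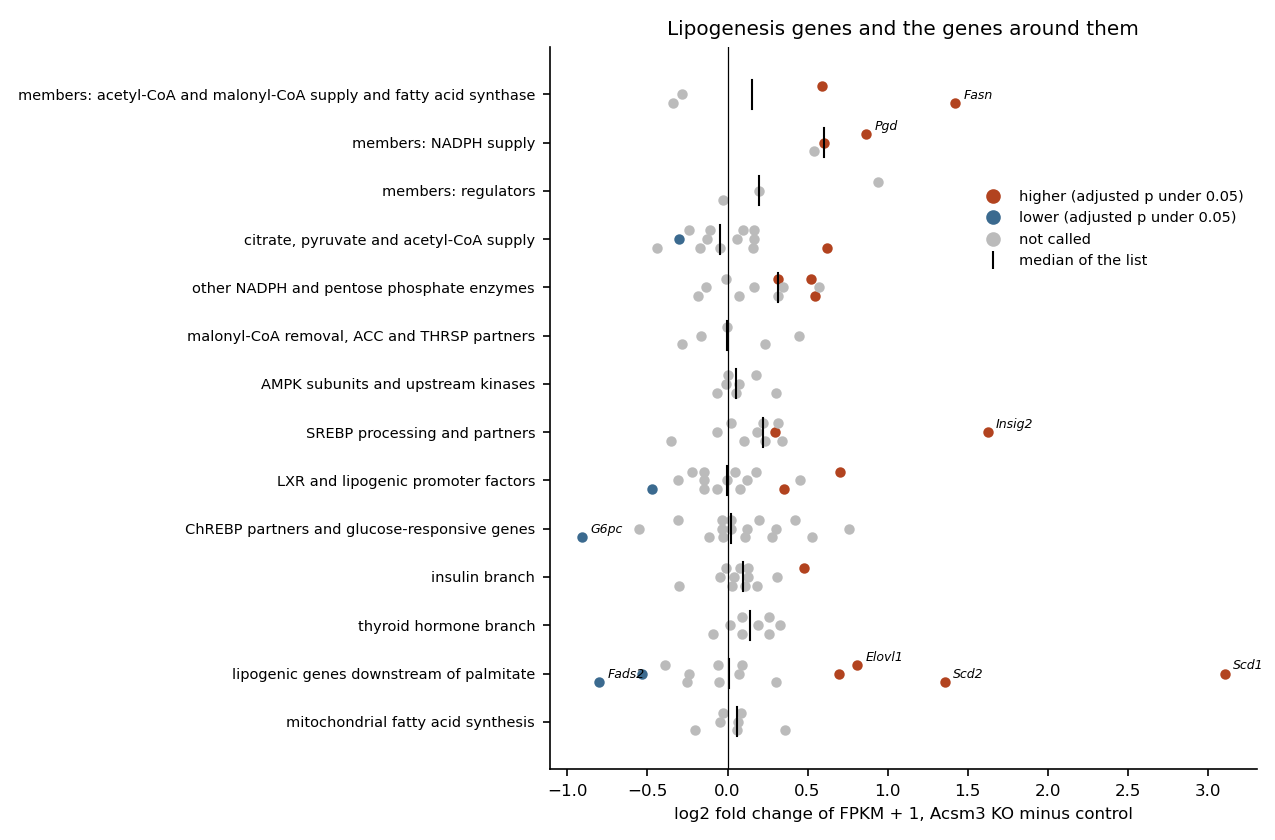
Log2 fold change of FPKM + 1, Acsm3 knockout minus control (horizontal axis), of each tested gene (points) in the lists of lipogenesis and neighbouring genes (rows). Red points were called higher, blue points lower and grey points not called (limma, adjusted p 0.05), and a vertical tick marks the median of the list. Scd1 at 3.11, Insig2 at 1.63, Fasn at 1.42 and Scd2 at 1.36 lie farthest to the right, and G6pc at -0.91 stands lowest.

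The 4 tested genes nearest to Fasn in profile, by root mean square distance of centred log2(FPKM + 1) over the 6 mice, were Sparc (0.09), Ccdc80 (0.10), Serpinb6b (0.11) and Lum (0.11), where the spread of the Fasn profile itself was 0.73. Sparc, a matrix-binding glycoprotein, was at 24.3, 27.6 and 18.3 FPKM in knockouts 1, 2 and 3, against 7.69, 8.39 and 7.02 FPKM in controls 1, 2 and 3. Like Fasn it was highest in knockout 2 and lowest among the knockouts in knockout 3. The 4 genes nearest to Srebf1 were Rsrp1 (0.04), Phldb3 (0.06), Gal3st1 (0.08) and Zfp444 (0.08), beside a spread of 0.32 of Srebf1 itself. All 4 were lowest in the mouse numbered 3 of each group, as Srebf1 was. Genes picked by nearness over these same 6 mice share the order of Fasn or Srebf1 largely by construction, so these matches are no separate result.

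Markers of several other liver cell types also differed between the groups. Their order among the knockouts varied by list, with knockout 3 lowest in 5 of 7 stellate markers but in 2 of 5 adipocyte markers. Of 7 tested stellate cell and fibroblast markers 6 rose and 0 fell, and their summed level was 92.3 to 120 FPKM in knockouts and 48.3 to 53.9 FPKM in controls. Col1a1, a fibrillar collagen, was at 8.43, 14.7 and 5.27 FPKM in knockouts 1, 2 and 3, against 0.447, 0.558 and 0.223 FPKM in controls 1, 2 and 3. Col1a1 (2.80 ± 0.31), Col3a1 (2.69 ± 0.23) and Pdgfrb (1.10 ± 0.13) passed whichever mouse was left out (limma, adjusted p from 0.00423 to 0.00885).

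Of 8 tested macrophage markers 3 rose (Cd68, Lyz2 and Adgre1) and 1 fell, Timd4 of resident Kupffer cells. Their summed level was 397, 424 and 227 FPKM in knockouts 1, 2 and 3, against 201, 223 and 139 FPKM in controls 1, 2 and 3. Knockout 3 was the lowest knockout in 6 of these 8 macrophage markers and in 5 of the 7 stellate markers. Among the lipogenesis genes it was lowest for Fasn, Acaca, Pgd, G6pdx and Srebf1. Knockout 1 was lowest for Acly, Acacb, Me1 and Thrsp, and knockout 2 for Mlxipl. Over all 10996 tested genes, knockout 3 was the lowest knockout in 56.3%. The rises of Cd68 (1.35 ± 0.29), Lyz2 (1.28 ± 0.32) and Adgre1 (0.93 ± 0.24) did not pass without any mouse but knockout 3 (limma, adjusted p up to 0.128), and Adgre1 not after either median-ratio rescaling (0.78 and 0.73). Of 6 tested endothelial markers 2 rose, Stab2 and Pecam1, with summed levels of 61.7 to 79.1 FPKM in knockouts and 47.5 to 54.9 FPKM in controls. Their calls too were lost without any mouse but knockout 3 (limma, adjusted p up to 0.0897).

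Adipocytes express lipogenesis genes strongly, and 3 of 5 tested adipocyte markers rose and 1 fell, the last being Pck1, which hepatocytes also express. Which cells expressed the markers that rose was not tested. Summed over all 9 listed markers, Pck1 included, the level was 593 to 873 FPKM in knockouts and 974 to 1367 FPKM in controls. Pck1 made up most of that sum, and the other 8 markers summed to 27.97, 36.5 and 52.0 FPKM in knockouts 1, 2 and 3, against 7.75, 11.7 and 4.85 FPKM in controls 1, 2 and 3. Cidea (2.65 ± 0.49), Cfd (2.58 ± 0.36) and Fabp4 (1.05 ± 0.16) were the markers that rose (limma, adjusted p from 0.0122 to 0.0213), of which Cidea was lost without knockout 1, knockout 2 or control 1 (adjusted p up to 0.0671) and Fabp4 without control 2 or control 3 (adjusted p up to 0.0536). The defining marker Adipoq was at 0, 0.0473 and 0.0895 FPKM in knockouts 1, 2 and 3 and listed at 0 in the 3 controls, and Plin1, Retn and Lep lay below the filter too. Of the cholangiocyte markers Spp1 alone was tested, and it rose (1.61 by limma), a call lost without control 3 (adjusted p = 0.0517). The 5 listed cholangiocyte markers summed to 34.1 to 66.6 FPKM in knockouts and 13.4 to 16.1 FPKM in controls. Without Spp1 the other 4 summed to 1.96 to 2.65 FPKM in knockouts and 0.974 to 1.502 FPKM in controls. Of the lymphocyte markers, 0 of 6 lymphocyte markers passed the filter, with sums of 1.27 to 3.16 FPKM in knockouts and 0.828 to 1.42 FPKM in controls.

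Of 8 tested hepatocyte markers 0 rose and 2 fell, Alb and Ttr. They summed to 34231 to 38174 FPKM in knockouts and 46414 to 54809 FPKM in controls. The falls of Alb (-0.61 ± 0.13) and Ttr (-0.43 ± 0.09) were lost without any mouse but knockout 3 (limma, adjusted p up to 0.116) and with quantile normalization, where Alb was at 0 by construction as the highest gene of every library. With no filter on low values both were lost too (adjusted p = 0.616 for Alb and 0.230 for Ttr by limma). So were the calls of Slc25a11, H6pd, Crebbp, Hnf4a, Nfya, G6pc, Gsk3b, Cidea, Cd68, Lyz2, Adgre1, Stab2 and Pecam1, with adjusted p from 0.0508 to 0.112. In whole liver, fewer cells of a type and less RNA per cell cannot be told apart, and the part that these marker levels have in the values of the lipogenesis genes was not tested.

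**Figure D5:**
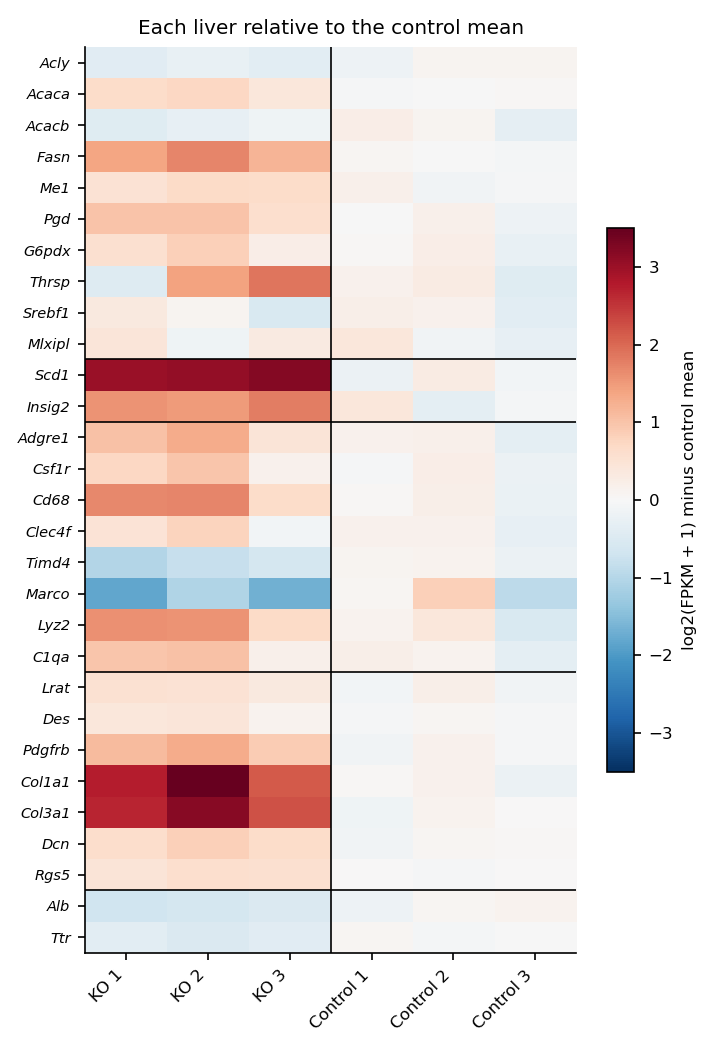
Log2(FPKM + 1) of each liver minus the control mean (colour), with the 3 Acsm3 knockout livers in the left columns and the 3 control livers in the right columns. Rows run from the 10 lipogenesis genes through Scd1 and Insig2, 8 macrophage markers and 7 stellate markers to the hepatocyte genes Alb and Ttr. Fasn, Acaca and Pgd are paler in knockout 3 than in knockouts 1 and 2, as are Cd68, Lyz2 and Col1a1, while Scd1 and Thrsp are darkest in knockout 3. Of the markers shown, 2 of 8 macrophage and 2 of 7 stellate ones are lowest in knockout 1 instead. Knockout 3 is the lowest knockout in 56.3% of all tested genes.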

How the data were processed

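Liver RNA was sequenced from 3 Acsm3 knockout and 3 control mice, all male and 12 weeks old. Expression is taken from the authors' deposited FPKM, 1 value per gene and mouse. The submitters' processing notes list HISAT2 2.0.4, Bowtie2 2.2.6, StringTie 1.3.0 and GRCm38, with no roles. Columns matched sample titles. The labels tell nothing of litter, cage or sequencing batch.

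FPKM were not rescaled. Of 28450 genes, the 10996 with at least 1 FPKM on average were tested on log2(FPKM + 1) with limma 3.58.1 in R 4.3.3 (lmFit, eBayes with a trend), with p-values adjusted by Benjamini-Hochberg and called under 0.05. Ratios between members were compared by an exact permutation test, two-sided. The fit was tested on simulated data. FPKM times the exon union length of GENCODE M21 moved in steps of 1 fragment, which gave each library's total. With these totals, values below 20 fragments were whole to within 0.1 in 99.6% to 99.7% of cases, though fragments summed over genes came to 102.9% to 103.4% of the totals. Depth is therefore an estimate. Tables and figures were made in Python 3.11.15 with numpy 2.4.6, matplotlib 3.10.9 and pandas 2.3.3.

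The members, lists and tests were chosen with earlier results of these data known. Named were all members, Acsm3, up to 3 called genes of largest fold per list (the gene of smallest p where none passed) and the 4 nearest profiles of Fasn and Srebf1, predicted genes left out. Slc25a1, Insig1, Fads1, Fads2, Timd4, Pck1 and Adipoq were named outside this rule, once their values were known. The alternatives were pseudocounts of 0.1 and 5, no filter or 5 FPKM, median-ratio rescaling, quantile normalization, eBayes without trend or robust, array weights, a replicate block, other thresholds and each mouse left out. Median-ratio factors were first computed over all genes above 0 in every mouse. After that output had been seen, in which Me1 lost its call and Mlxipl changed sign, the gene set was changed to genes of at least 1 FPKM, and both versions are reported. Voom on recovered fragments was likewise added after the data were seen. The result for 1 listed gene is not reported here.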

Additional observations from a re-analysis of the deposited data

How the results depend on the processing

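Fasn passed as higher under all 18 alternative fits, and Pgd under all 12 that kept every mouse. The median-ratio rescaling was run with 2 sets of genes, and the choice between them was made after both results had been seen. With all genes above 0, the version run first, Me1 lost its call (0.40), Mlxipl changed sign (-0.0070) and 724 genes were called higher and 919 lower. With genes of at least 1 FPKM, Me1 kept its call and 830 were higher and 735 lower. Acly, not called as deposited, was called lower with a filter at 5 FPKM (-0.34), both median-ratio versions (-0.49 with genes of at least 1 FPKM and -0.54 with all genes above 0), quantile normalization (-0.46), array weights (-0.34), the replicate block (-0.34) and voom (-0.35), and these 7 fits and a threshold of 0.1 each gave 1 member lower. Acaca lost its call with no filter (0.59) and is not tested at 5 FPKM. G6pdx passed with array weights (0.60) and the replicate block (0.54), and Srebf1 changed sign with array weights (0.022). A threshold of 0.01 left 1 member higher. Leaving out 1 mouse gave 1 to 5 members higher and 0 to 1 lower, with log2 fold changes of -0.42 to -0.30 for Acly, 0.51 to 0.69 for Acaca, 0.54 to 0.69 for Me1, 0.78 to 1.01 for Pgd, 0.40 to 0.70 for G6pdx, 0.48 to 1.64 for Thrsp and -0.21 to 0.22 for Srebf1. No within-mouse ratio changed direction. Of all tested genes, 1532 were called higher and 287 lower, against 544 and 106 with no filter, 752 and 603 with quantile normalization and 2742 and 537 with array weights. At 5 FPKM 848 were higher, and 226 to 1968 were higher and 55 to 282 lower without 1 mouse. Fits without 1 mouse have fewer samples, and the cause of the other shifts was not tested. Knockouts and controls with the same number deviated together only weakly (correlations of 0.11, 0.09 and 0.19), though every mouse correlated best with its own number, so the pairing was not taken as given. The replicate block called 5 members higher and 1 lower. Depth limits G6pdx most.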
